A study of Sus scrofa with 12 samples.

Results

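Genes of the basement membrane and of the integrin receptors that bind it were described in the uterus of newborn gilts (young female pigs). The members were the rows of the expression table named, by exact symbol, as a laminin chain, a chain of collagen IV, XV or XVIII, an integrin alpha or beta chain, NID1, NID2, HSPG2, AGRN, DAG1 or a syndecan (SDC1 to SDC4). This gave 33 of the 20390 rows: 6 laminin chains, 4 collagen IV chains, COL15A1, the nidogen NID2, the perlecan gene HSPG2, 11 integrin alpha chains, 7 integrin beta chains and the syndecans SDC2 and SDC4. No row carried the name of dystroglycan (DAG1). The uterine transcriptome was compared in 3 groups of 4 gilts with 1 library each: PND2N, which nursed freely for 48 h, PND2R, which were given a commercial milk replacer for 48 h, and PND0, whose uteri were collected no later than 1 h after birth. The day 2 uteri were collected at 50 h of age, and all gilts were crossbred, their breed label listing Landrace, Yorkshire, Duroc, Hampshire. Whole uteri, trimmed of connective tissue, were used, so each library mixes epithelium, stroma, muscle and vessels, and in such bulk RNA fewer cells of a type and less RNA per cell cannot be told apart. Litter and batch are not among the labels, and p-values measure the spread between these animals.

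Basement membranes are thin matrix sheets beneath epithelia and around smooth muscle cells, nerves and vessels. Laminins, each built of an alpha, a beta and a gamma chain, form one network and collagen IV another, and nidogens and perlecan connect them. Cells hold on to the sheet through integrins, each an alpha chain paired with a beta chain, and through dystroglycan and the syndecans. In pigs the uterine glands form after birth, when the luminal epithelium buds into the stroma across such a sheet.

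The deposited values are linear expression values that the authors normalized, with 1 as the lowest, and they are called normalized values here. Library totals were between 26534074 and 29544130. All 9 uterine marker genes looked for had a row. ESR1 was at 4286 to 7785 in PND2N, 3910.0 to 5978 in PND2R and 1035 to 3184 in PND0, and WNT7A was at 4384 to 8633 in PND2N, 5359.7 to 6309 in PND2R and 869.8 to 7545 in PND0. PGR was at 14.1 to 188 in PND2N, 37.4 to 146 in PND2R and 256 to 408 in PND0, and the gland marker FOXA2 was at 19.4 to 40.0 in PND2N, 68.2 to 264 in PND2R and 1.52 to 89.4 in PND0. The libraries PND2N 1, PND2R 2 and PND2R 3 stood apart from the other 9. They held the lowest 3 values of 16 of the 33 members (48.5%), against 21.2% of the 16862 genes tested, and the highest 3 values of 1 member (3.03%), against 15.8% of genes. In these libraries the summed normalized value of 8 of 10 smooth muscle markers was 200996 to 251380, and in the other 9 it was 102815 to 172214. The markers did not all follow the sum: DES was at 29022 to 40049 in the libraries apart and 7460.1 to 23440 in the others, MYLK was at 792 to 1366 and 3182 to 14121, and SYNPO2 at 14172 to 16530.4 and 13386 to 27169, overlapping. The sum of 6 of 7 stromal markers was 206179 to 265176 in the libraries apart and 282370 to 463520 in the others. COL3A1 made up most of that sum, while THY1 went the other way, at 16102 to 18306 in the libraries apart and 7618 to 15723 in the others, and DCN overlapped, at 40635 to 48549 and 39388 to 55406. What sets these libraries apart was not tested, nor was its part in the results, and each called member is also given for the 9 other libraries.

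Each gene was tested with limma on log2(value + 1) over all 12 libraries, and a gene is called when its p-value, adjusted over all 16862 genes tested, is under 0.05. All 33 members passed the filter on low values. A log2 change is given with its standard error (SE). Calls were also made without the filter on low values, with plain empirical Bayes (no trend, not robust), with library quality weights, with other scalings and in a fit of the compared groups only, and these are named where they end a call.

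At day 2 most members had lower values than at birth, but few were called, and the share called was near that of all genes. In replacer-fed gilts against birth, 5 of 33 members were called (15.2%), while 15.0% of all genes tested were. COL4A2, NID2, SDC4 and the row named LAMC1 fell (12.1% of members, against 7.31% of genes) and ITGAE rose (3.03%, against 7.7% of genes). In nursed gilts against birth, 0 of 33 members were called by limma, against 3.32% of genes. COL4A2, NID2, SDC4, COL4A5, ITGB8 and the LAMC1 row, 6 members or 18.2%, had an unadjusted p under 0.05 there, against 23.9% of genes. In PND2R this was so for 14 members (42.4%), against 37.0% of genes, and 12 of these were lower than at birth (36.4%, against 20.1% of genes). With both day 2 groups averaged, 6 members were called (18.2%), against 18.1% of genes, COL4A5 being added as a second member that rose. There 4 members fell (12.1%, against 8.49% of genes) and 2 rose (6.06%, against 9.57%).

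The log2 change from PND0 was negative for 27 of 33 members (81.8%) in each day 2 group, against 52.5% of genes in PND2N and 53.0% in PND2R. The median change over the members was -0.28 in PND2N and -0.60 in PND2R, beside -0.04 and -0.06 over all genes. Both comparisons use the same 4 PND0 libraries. Quantile normalization gave 25 negative members in PND2N and 26 in PND2R, library quality weights gave 21 and 28, and leaving out the libraries apart gave 22 and 24 (66.7% and 72.7%, against 51.7% and 52.5% of genes). All PND2R libraries lay below all PND0 libraries for 8 members (24.2%, against 15.6% of genes) and above them for COL4A5 and ITGAE (6.06%, against 12.7%). In PND2N this was so for ITGB8, SDC4 and the LAMC1 row (9.09% lower, against 7.88% of genes) and for COL4A5 (3.03% higher, against 8.14%). Without PND2N 1, PND2R 2 and PND2R 3 no member was called by limma in any comparison, against 1.65% of genes in PND2N, 1.7% in PND2R, 8.51% in the day 2 average and 0.036% between the day 2 groups, and 6 members had an unadjusted p under 0.05 in each day 2 group (18.2%, against 22.6% of genes in PND2N and 21.6% in PND2R).

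The count of called members in PND2R against PND0 also turned on single libraries. It was 0 when PND2R 2, PND2R 3 or PND0 4 was left out, 1 without PND0 2, 2 without PND2N 4, PND0 1 or PND0 3, 3 without PND2N 2 or PND2R 4, 5 without PND2N 3, 10 without PND2N 1 and 11 without PND2R 1. For the day 2 average it was 0 without PND0 4, 1 without PND0 2, 2 without PND2N 4, PND2R 2, PND2R 3, PND0 1 or PND0 3, and 4 to 7 without each of the others. The number of all genes called moved as well when 1 library was left out. It was 543 to 4109 in PND2R against PND0 and 1014 to 3837 in the day 2 average, so the swing is not particular to the members.

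**Figure D1:**
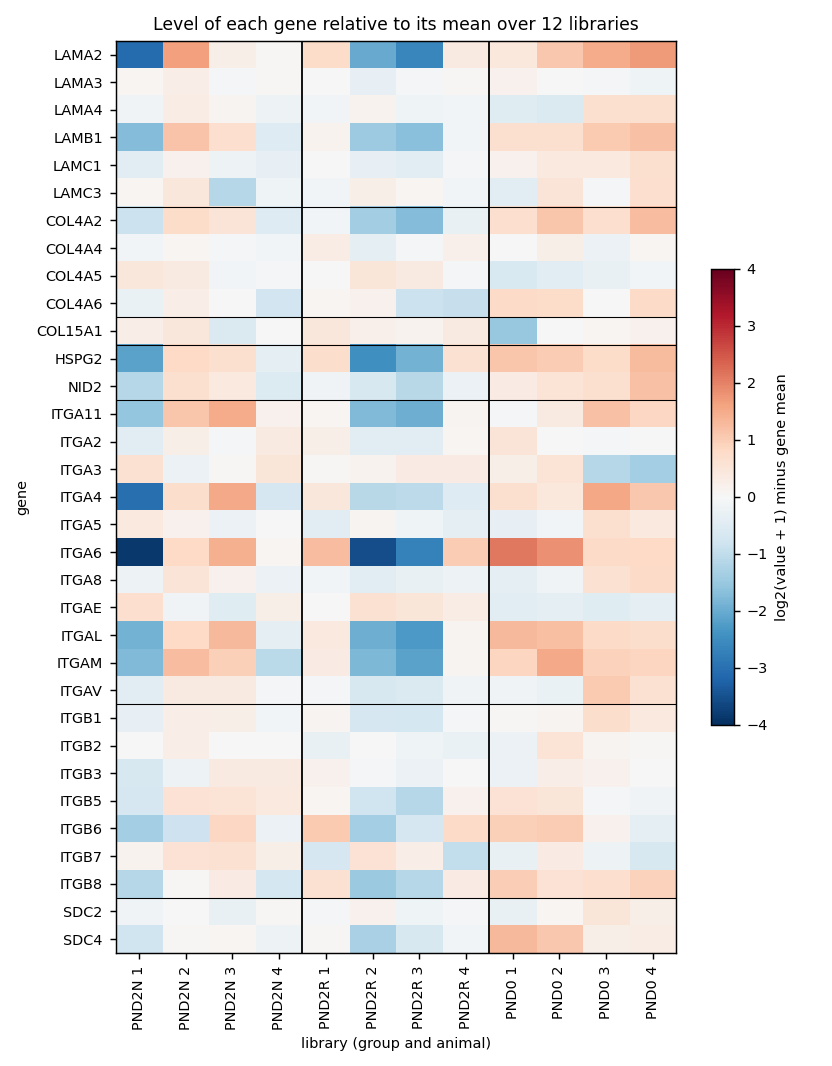
Level of each of the 33 genes (rows, grouped by role) in the 12 libraries (columns, PND2N, PND2R and PND0 from left to right), as log2(value + 1) minus the gene's own mean. In PND2N 1, PND2R 2 and PND2R 3, 25, 23 and 27 of the 33 genes were below their own mean, with ITGA6 lowest at -3.85, -3.56 and -2.71.

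Among the 6 laminin chains, 1 row was called, and the log2 change was negative for 5 of 6 in PND2N (median -0.48) and 6 of 6 in PND2R (median -0.38). The row named LAMC1, by its name the gamma chain of most laminins, had normalized values of 6942, 10553, 8130.1 and 7469 in PND2N 1 to 4, 9409, 7482, 6792 and 9132 in PND2R 1 to 4, against 10598, 12189, 12140.5 and 14736 in PND0 1 to 4. Every day 2 library lay below every PND0 library, PND2N 2 only just. The row fell in PND2R (-0.60 ± 0.17 SE, adjusted p = 0.0343) and in the day 2 average (-0.60 ± 0.14, adjusted p = 0.0196), and in PND2N the change was -0.59 ± 0.17 (adjusted p = 0.0694). The PND2R call ended when PND2R 2, PND2R 3, PND0 2, PND0 3 or PND0 4 was left out (adjusted p 0.0551 to 0.11), and the day 2 call when PND0 4 was left out (adjusted p 0.0694). The PND2R call also ended with plain empirical Bayes or library quality weights, and the day 2 call with library quality weights. Without the libraries apart the day 2 change was -0.46 (adjusted p = 0.0724).

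The identity of this row is uncertain. The table places it at chr13:34413567-34423289 (Sscrofa10.2, minus strand) and describes it as formerly LAMB2, while its gene ID belongs to USP19, a deubiquitinating enzyme, in a later NCBI table, where LAMC1 lies on chromosome 9. It is therefore called the LAMC1 row, and no level of laminin gamma chains is read from it.

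LAMA4, an alpha chain of vessel and mesenchymal laminins (chr1:82645325-82887675), stood at 9088, 12251, 10718 and 8752 in PND2N 1 to 4, 9191, 10903, 8799 and 9156 in PND2R 1 to 4, against 7097, 6742, 15526 and 15389 in PND0 1 to 4. PND0 3 and PND0 4 had more than any day 2 library and PND0 1 and PND0 2 had less, so the day 2 values lay inside the range at birth. LAMA2, the alpha chain of the laminin around muscle and nerve (chr1:36180756-36306623), had 85.3, 2269.7, 845 and 749 in PND2N 1 to 4, 1193, 180.0, 118 and 936 in PND2R 1 to 4, against 979, 1516, 2011 and 2351 in PND0 1 to 4. The libraries PND2N 1, PND2R 2 and PND2R 3 were the lowest 3 by a wide gap, and no change of LAMA2 reached an unadjusted p under 0.05. LAMB1, the beta chain of many laminins (chr9:116596595-116671270), had 1665, 12079.5, 8793 and 3814 in PND2N 1 to 4, 6053, 1997, 1733 and 5105 in PND2R 1 to 4, against 8578, 8599.7, 11289.9 and 12499 in PND0 1 to 4. All PND2R libraries lay below all PND0 libraries, yet the change of -1.65 ± 0.57 was not called (adjusted p = 0.0665), and without the libraries apart it was -0.86 (adjusted p = 0.226). LAMA2 and LAMB1 were chosen for display by library after their values were seen. The interval of LAMB1 also holds LOC100623096, an entry on the opposite strand, at 4.48 to 111. LAMA3, the alpha chain of the laminin of epithelial hemidesmosomes, was at 2161 to 2657 in PND2N, 1764 to 2304 in PND2R and 1968 to 2484 in PND0, with overlapping groups, and its interval in the table also holds NPC1, which is on the opposite strand, and a further entry described as laminin alpha-3-like. LAMC3, a less widely used gamma chain, was at 3326 to 10191 in PND2N, 6879.7 to 8722 in PND2R and 5561 to 11763 in PND0.

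Of the 4 collagen IV chains, COL4A2 fell and COL4A5 rose. COL4A2 encodes the chain that joins COL4A1 in nearly all basement membranes (chr11:81014710-81050331). Its normalized values were 1397, 4216, 3621 and 1799 in PND2N 1 to 4, 2380.0, 971, 763 and 2088 in PND2R 1 to 4, against 4112, 5560.3, 4095 and 5968 in PND0 1 to 4. All PND2R libraries lay below all PND0 libraries, with PND2R 2 and PND2R 3 lowest, and PND2N overlapped PND0 through PND2N 2 alone. The change was -0.97 ± 0.42 in PND2N (adjusted p = 0.185), -1.81 ± 0.42 in PND2R (adjusted p = 0.0203) and -1.39 ± 0.36 in the day 2 average (adjusted p = 0.0249). The PND2R call ended when PND2R 2, PND2R 3 or PND0 4 was left out (adjusted p 0.0571 to 0.067), and the day 2 call when PND2N 4, PND0 2, PND0 3 or PND0 4 was left out (adjusted p 0.0502 to 0.0817). The day 2 call also ended with no filter on low values or library quality weights. With the 9 other libraries the changes were -0.69 in PND2N (adjusted p = 0.186), -1.12 in PND2R (adjusted p = 0.0941) and -0.91 in the day 2 average (adjusted p = 0.0506).

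COL4A5, a chain of specialized collagen IV networks that smooth muscle also holds (X:95308581-95330121), had 12325, 11706, 8389 and 8726 in PND2N 1 to 4, 8977, 12564, 11609 and 8798 in PND2R 1 to 4, against 5918, 6698, 7412 and 8348 in PND0 1 to 4. Each of the 8 day 2 libraries was above each PND0 library, and PND2N 1, PND2R 2, PND2N 2 and PND2R 3 were the highest. It rose in the day 2 average (0.54 ± 0.16, adjusted p = 0.0345), while the changes of 0.53 ± 0.18 in PND2N (adjusted p = 0.113) and 0.56 ± 0.18 in PND2R (adjusted p = 0.0542) were not called. The day 2 call ended when PND2N 1, PND2N 2, PND2R 2, PND2R 3, PND0 1, PND0 2, PND0 3 or PND0 4 was left out (adjusted p 0.0504 to 0.0909). It also ended with plain empirical Bayes. In the 9 other libraries the day 2 change was 0.38 (adjusted p = 0.124). The gene ID of this row is not listed in the later NCBI table, where COL4A5 also lies on the X chromosome. The name of the row therefore rests on the deposited annotation alone.

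The row named COL4A6, by its name the partner of COL4A5, was at 17.4 to 37.1 in PND2N, 15.6 to 34.7 in PND2R and 29.98 to 52.7 in PND0, and its PND2R change of -0.93 ± 0.39 was not called (adjusted p = 0.106). Its gene ID is not listed in the later table, where COL4A6 is the ID of the entry LOC100620724 (X:94561124-94654409). That entry was at 802 to 3899 in PND2N, 436 to 2441 in PND2R and 2260.1 to 3761 in PND0, with a PND2R change of -1.38 ± 0.59 (adjusted p = 0.112) and of -0.38 without the libraries apart, where it was lowest. A further entry described as like this chain, LOC100621240, was at 318 to 742 in PND2N, 226 to 557 in PND2R and 536 to 922 in PND0, with a PND2R change of -0.90 ± 0.36 (adjusted p = 0.1) and of -0.35 without the libraries apart. No level of COL4A6 is therefore read from the row of that name. COL4A4, a chain of kidney and ear basement membranes, was at 511 to 577 in PND2N, 432 to 682 in PND2R and 465 to 651 in PND0, with overlapping groups. COL15A1, the collagen that ties basement membranes to the fibrils of the stroma (chr1:251502339-251547784), had 15116, 17267, 8489 and 12708 in PND2N 1 to 4, 17371, 14709.9, 13979.9 and 16362 in PND2R 1 to 4, against 4441, 12639.8, 13389 and 14341 in PND0 1 to 4. PND0 1 was far below the other 11 libraries, none of the comparisons was called, and the 95% interval of the day 2 change ran from -0.16 to 1.12 on the log2 scale. The gene ID of the COL15A1 row is not listed in the later table either, where COL15A1 also lies on chromosome 1.

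NID2, the nidogen that links laminin to collagen IV (chr1:189423297-189496431), had 2097, 7261, 6009 and 3177 in PND2N 1 to 4, 4211, 2967, 2148 and 3959 in PND2R 1 to 4, against 5796, 6795, 7252 and 10496 in PND0 1 to 4. All PND2R libraries lay below all PND0 libraries, and in PND2N the animals 2 and 3 reached the PND0 range while 1 and 4 did not. NID2 fell in PND2R (-1.20 ± 0.37, adjusted p = 0.0465) and in the day 2 average (-1.02 ± 0.32, adjusted p = 0.0446), and the PND2N change of -0.84 ± 0.37 was not called (adjusted p = 0.187). Both calls ended when any of PND2N 4, PND2R 2, PND2R 3, PND2R 4, PND0 1, PND0 2, PND0 3 or PND0 4 was left out (adjusted p 0.0573 to 0.139 in PND2R and 0.0505 to 0.141 in the day 2 average). Both also ended with no filter on low values, plain empirical Bayes or library quality weights. With the libraries apart removed, the PND2R change was -0.86 (adjusted p = 0.165) and the day 2 change -0.69 (adjusted p = 0.111).

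HSPG2 encodes perlecan, the large heparan sulfate proteoglycan of basement membranes (chr6:72795744-72878660). It stood at 3612, 27644, 24441 and 12333 in PND2N 1 to 4, 25637, 2859, 4304 and 24045 in PND2R 1 to 4, against 34117, 31791, 26074 and 38075 in PND0 1 to 4. PND2N 1, PND2R 2 and PND2R 3 were far below the other 9 libraries, so both day 2 groups were split, and all PND2R libraries were below all PND0 libraries. The change in PND2R was -1.79 ± 0.76 (adjusted p = 0.112), which was not called, and without the libraries apart it was -0.38 (adjusted p = 0.484). Other entries described as like this proteoglycan differed in direction. LOC100626701 had a PND2R change of 0.99 ± 0.33 (adjusted p = 0.06) and a day 2 change of 0.87 ± 0.29 (adjusted p = 0.0547). Without the libraries apart its day 2 change was 0.54 (adjusted p = 0.15). LOC100627092 had a PND2R change of -2.12 ± 0.95 (adjusted p = 0.127). None of these was called, and no direction of perlecan is read from HSPG2 alone.

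**Figure D2:**
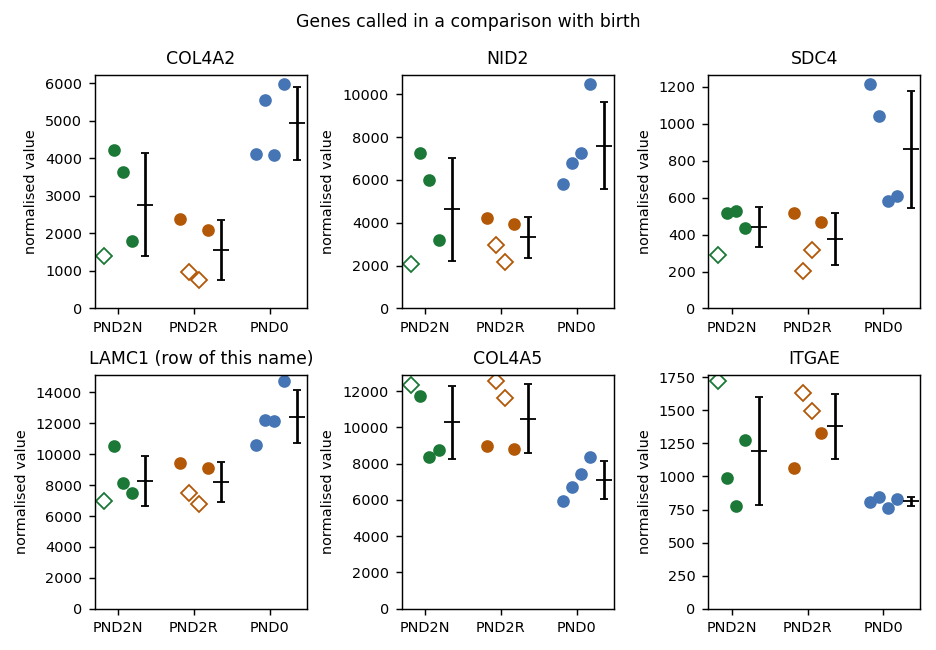
Normalized values (vertical axis, linear, from 0) of the 6 genes called in a comparison with birth, 1 point per library, with group mean and SD beside the points. Open diamonds mark PND2N 1, PND2R 2 and PND2R 3, which are the lowest day 2 libraries for COL4A2, NID2 and SDC4 and the highest for ITGAE.

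The 11 integrin alpha chains had a negative log2 change for 9 of 11 in each day 2 group (median -0.26 in PND2N and -0.67 in PND2R) and included 1 called gene, ITGAE, the chain of the receptor by which intraepithelial lymphocytes bind E-cadherin (chr12:52034064-52138684). ITGAE had 1720.0, 990.1, 779.9 and 1279 in PND2N 1 to 4, 1064, 1631, 1497 and 1325 in PND2R 1 to 4, against 803, 844, 764 and 831 in PND0 1 to 4. PND2N 1, PND2R 2 and PND2R 3 were the highest libraries, and all PND2R libraries lay above all PND0 libraries, which were close together. It rose in PND2R (0.75 ± 0.23, adjusted p = 0.0472) and in the day 2 average (0.62 ± 0.20, adjusted p = 0.0488). The PND2R call ended when PND2N 2, PND2N 4, PND2R 2, PND2R 3, PND2R 4, PND0 1, PND0 2, PND0 3 or PND0 4 was left out (adjusted p 0.059 to 0.135), and the day 2 call was kept only without PND2N 3 or without PND2R 1 (adjusted p 0.0535 to 0.11 without each of the other 10). Without the libraries apart the PND2R change was 0.55 (adjusted p = 0.193) and the day 2 change 0.42 (adjusted p = 0.146). The PND2R call also ended with no filter on low values or plain empirical Bayes, and the day 2 call with no filter on low values, median-ratio scaling, quantile normalization, plain empirical Bayes or library quality weights. The interval of ITGAE in the table also holds CAMKK1, a kinase gene on the same strand, at 24.0 to 166.

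The members ITGAL, ITGAM and ITGA4, further leukocyte alpha chains, were lowest in the libraries apart, where ITGAE was highest. This did not hold for all entries of such chains. LOC100626336, ITGAD in the later table, was at 65.4 to 94.1 in the libraries apart, against 24.3 to 150 in the other 9. The ITGAL entry LOC100621993 was at 591 to 647, against 310 to 643. ITGAL, of the receptor by which leukocytes bind ICAM1, was at 38.4 to 352 in PND2N, 28.3 to 187 in PND2R and 234 to 358 in PND0. ITGAM, of the complement receptor of myeloid cells, was at 27.8 to 230.2 in PND2N, 21.2 to 121 in PND2R and 177 to 278 in PND0. Every PND2R library of both genes was below every PND0 library, and PND2N 1, PND2R 2 and PND2R 3 had the lowest values of both. The PND2R changes of -1.94 ± 0.73 for ITGAL (adjusted p = 0.083) and -1.92 ± 0.73 for ITGAM (adjusted p = 0.0839) were not called. In the 9 other libraries they were -0.75 and -0.83 (adjusted p = 0.336 and 0.417). ITGA4, the chain that binds VCAM1, was at 5.10 to 143 in PND2N, 21.9 to 67.3 in PND2R and 65.1 to 143 in PND0, with overlapping groups. Of the 9 leukocyte markers 8 had a row, and their summed value was 5336 to 6807 in PND2N, 5269 to 5731 in PND2R and 3123 to 6230.1 in PND0. PTPRC, which marks all leukocytes, was 103, 597, 669 and 361 in PND2N 1 to 4, 369.8, 159, 176 and 329 in PND2R 1 to 4, against 337, 487, 363 and 258 in PND0 1 to 4. PTPRC was thus lowest in the same 3 libraries, while TYROBP (419 to 551, against 126 to 369.8 in the other 9) and the B cell gene CD79A (118 to 129.7, against 21.8 to 82.0) were highest there. The T cell gene CD3E was at 50.1 to 82.1 in PND2N, 24.2 to 63.7 in PND2R and 32.1 to 58.8 in PND0, and CD14 was at 2.42 to 7.06 in PND2N, 1.00 to 3.32 in PND2R and 1.96 to 9.79 in PND0, the lowest value of the table being 1. The part of leukocyte numbers in these values was not tested.

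Chains that bind laminin were ITGA3 and ITGA6. ITGA6, which pairs with ITGB4 in hemidesmosomes, had 79.7, 2024, 3138 and 1236 in PND2N 1 to 4, 2714, 97.5, 176 and 2347 in PND2R 1 to 4, against 5030.4, 4142, 1988 and 2034 in PND0 1 to 4. The libraries apart were far below the others. ITGA6 had the largest SE of the 33 members, and its 95% interval for PND2R against PND0 ran from -5.09 to 0.31 (adjusted p = 0.178). It was chosen for display by library after these values were seen. ITGA3 was at 2400.1 to 4233 in PND2N, 2923 to 3504 in PND2R and 1093 to 4082 in PND0, with PND0 3 and PND0 4 the lowest of all 12 libraries.

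Chains that bind collagen were ITGA2, at 2715 to 4779.9 in PND2N, 2726 to 4396 in PND2R and 3621 to 5332 in PND0, and ITGA11, a chain of fibroblasts, at 62.6 to 523 in PND2N, 47.1 to 203 in PND2R and 182 to 423 in PND0. For both, PND2N 1, PND2R 2 and PND2R 3 were the lowest libraries, and neither was called. Among the chains that bind the RGD motif of matrix proteins, ITGA8, which binds nephronectin and is known from smooth muscle and mesenchyme (chr10:52698221-52867255), had 8537, 14045, 10953 and 8289 in PND2N 1 to 4, 8991, 7055, 7987 and 8472 in PND2R 1 to 4, against 7368, 8818, 14853 and 16642 in PND0 1 to 4. PND0 3 and PND0 4 were the highest and PND0 1 was among the lowest, and of the day 2 libraries PND2R 2 alone was outside the range at birth. The fibronectin receptor chain ITGA5 was at 4881 to 7583 in PND2N, 4201 to 6202 in PND2R and 4609.8 to 9097 in PND0. Its interval lies within that of LOC100521495, an entry on the same strand at 556 to 2176. ITGAV, the partner of several beta chains in binding fibronectin, vitronectin and latent TGF beta, was at 3274 to 5611 in PND2N, 2822 to 4155 in PND2R and 3654 to 9043 in PND0, and its PND2R change of -0.67 ± 0.29 was not called (adjusted p = 0.119).

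No integrin beta chain was called by limma in any comparison, and 6 of 7 had a negative change in each day 2 group (median -0.09 in PND2N and -0.49 in PND2R). At an unadjusted p under 0.05 there were ITGB8 in PND2N, and ITGB1 and ITGB8 in PND2R and in the day 2 average. ITGB8, the partner of ITGAV in releasing active TGF beta (chr9:97371676-97474946), had 1358, 3112, 3799 and 1863 in PND2N 1 to 4, 4576, 1062, 1366 and 3763 in PND2R 1 to 4, against 5917, 4502, 4794 and 5639 in PND0 1 to 4. All PND2N libraries were below all PND0 libraries, and PND2R overlapped PND0 through PND2R 1 alone. The changes were -1.15 ± 0.45 in PND2N (adjusted p = 0.156), -1.21 ± 0.45 in PND2R (adjusted p = 0.0818) and -1.18 ± 0.39 in the day 2 average (adjusted p = 0.0561). With the 9 other libraries they were -0.89, -0.32 and -0.60 (adjusted p = 0.0731, 0.506 and 0.0913).

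ITGB1, the partner of most alpha chains that bind the basement membrane (chr10:63684923-63737164), had 18573, 27539, 27026 and 21424 in PND2N 1 to 4, 24884, 14429, 14238 and 22116 in PND2R 1 to 4, against 24043, 25052, 37929 and 30482 in PND0 1 to 4. PND2R 2 and PND2R 3 were lowest, followed by PND2N 1, and PND0 3 was highest. The change in PND2R was -0.66 ± 0.22 (adjusted p = 0.0635), and without the libraries apart -0.30 (adjusted p = 0.424). The leukocyte chain ITGB2 was at 696 to 843 in PND2N, 563 to 699 in PND2R and 588 to 1028 in PND0. The further partners of ITGAV were ITGB3, at 143 to 289 in PND2N, 193 to 252 in PND2R and 189.7 to 273 in PND0, ITGB5, at 41.1 to 97.8 in PND2N, 29.6 to 73.6 in PND2R and 60.2 to 99.6 in PND0, and the epithelial ITGB6, at 1.00 to 8.07 in PND2N, 1.00 to 9.61 in PND2R and 2.95 to 9.38 in PND0. A further entry described as integrin beta-5-like, LOC100624457, was at 3589 to 6888 in PND2N, 4036 to 6397 in PND2R and 2528 to 4983 in PND0. Its day 2 change of 0.53 ± 0.23 was not called (adjusted p = 0.11), while that of ITGB5 was negative. Without the libraries apart both changes were positive and neither was called. No level of the whole beta-5 chain is therefore read from the ITGB5 row. ITGB6 was listed at the lowest value of the table in PND2N 1 and PND2R 2. The row named ITGB7, by its name the partner of ITGAE, was at 47.6 to 65.4 in PND2N, 21.0 to 63.7 in PND2R and 27.2 to 54.0 in PND0. Its gene ID is not listed in the later NCBI table, where the ID of the neighbouring row, named RARA, is that of ITGB7, so this row's identity is uncertain as well.

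**Figure D3:**
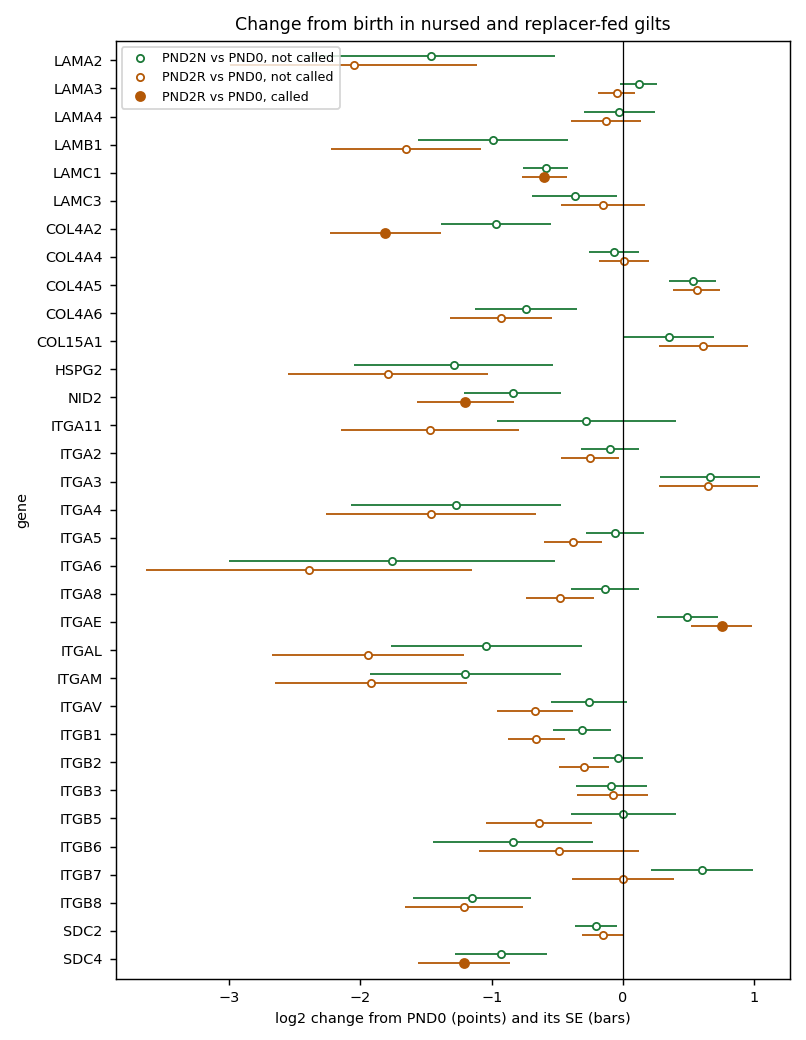
Log2 change from PND0 (horizontal axis) of each of the 33 genes in PND2N (green, upper point of each pair) and PND2R (orange, lower point), with SE bars. Filled points are called at an adjusted p under 0.05: LAMC1, COL4A2, NID2, ITGAE and SDC4 in PND2R, and none in PND2N.

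SDC4, the syndecan that works with integrins in focal adhesions (chr17:53938504-53941472), had 288, 518, 525 and 435 in PND2N 1 to 4, 517, 203, 318 and 466 in PND2R 1 to 4, against 1216, 1044, 582 and 607 in PND0 1 to 4. Each day 2 library was below each PND0 library, and PND0 1 and PND0 2 were well above PND0 3 and PND0 4. SDC4 fell in PND2R (-1.21 ± 0.35, adjusted p = 0.0397) and in the day 2 average (-1.07 ± 0.30, adjusted p = 0.0337), and the PND2N change of -0.93 ± 0.35 was not called (adjusted p = 0.141). The PND2R call ended when PND2N 2, PND2N 4, PND2R 2, PND2R 3, PND0 1, PND0 2 or PND0 4 was left out (adjusted p 0.051 to 0.116), and the day 2 call when PND2N 4, PND2R 2, PND2R 3, PND0 1, PND0 2 or PND0 4 was left out (adjusted p 0.0526 to 0.0923). The PND2R call also ended with no filter on low values or a fit of the compared groups only, and the day 2 call with no filter on low values. For the 9 other libraries alone the changes were -0.74 in PND2R (adjusted p = 0.217) and -0.74 in the day 2 average (adjusted p = 0.0882). The summed value of 10 of 12 epithelial markers was 52708 to 96803 in PND2N and 75604 to 96286 in PND2R, against 108590.0, 113170.0, 31256 and 24727 in PND0 1 to 4. The part of the epithelial share in the level of SDC4 was not tested. SDC2, a syndecan of mesenchymal cells (chr4:41313627-41442524), had 13743, 15475, 12582 and 15972 in PND2N 1 to 4, 14782, 17142, 13737 and 14522 in PND2R 1 to 4, against 12512, 16089, 21300.4 and 17976 in PND0 1 to 4. The groups overlapped and SDC2 was not called.

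Over both day 2 groups, the members whose change moved most when the libraries apart were left out were ITGA6, LAMA2 and HSPG2. The day 2 change of ITGA6 was -0.44 with 9 libraries, against -2.08 with 12, that of LAMA2 -0.58, against -1.75, and that of HSPG2 -0.52, against -1.54. None of the 3 was called in either fit. Among those that moved least were SDC2 (-0.19 with 9 libraries, against -0.18 with 12), COL15A1 (0.50, against 0.48) and ITGA3 (0.58, against 0.65). These examples were picked with their values known. The median over the 33 members was -0.25 with 9 libraries, against -0.46 with 12, and over all genes -0.03, against -0.05.

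**Figure D4:**
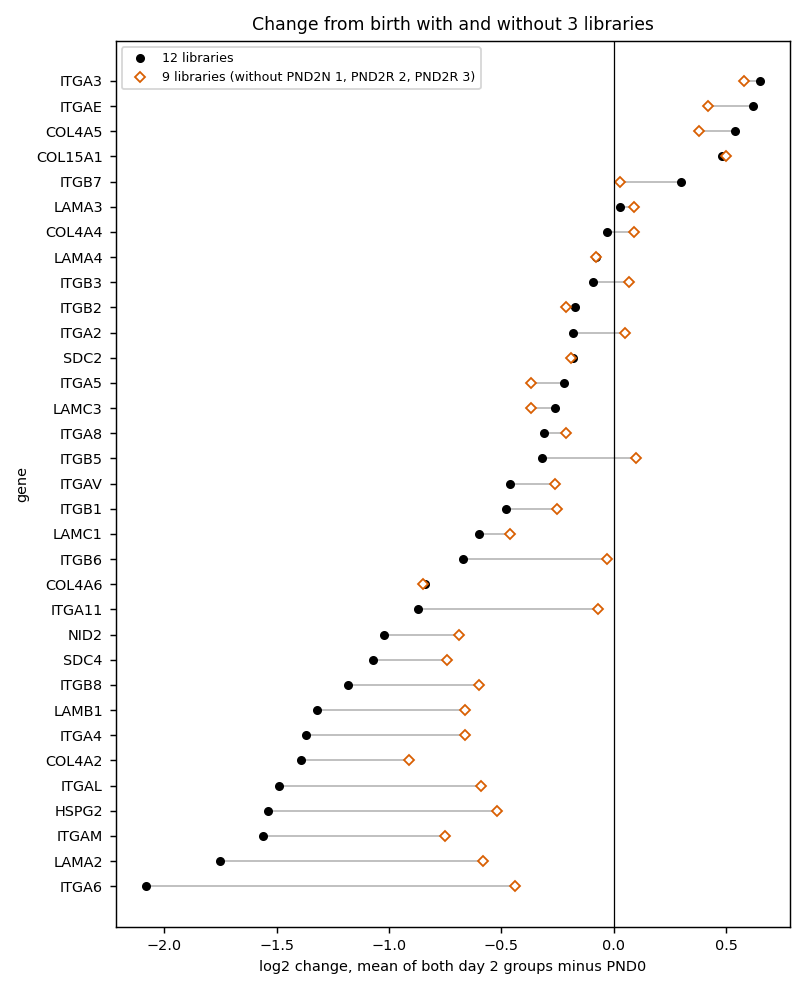
Log2 change of each of the 33 genes between the mean of both day 2 groups and PND0 (horizontal axis), with all 12 libraries (black) and with the 9 left without PND2N 1, PND2R 2 and PND2R 3 (open diamonds). ITGA6 moved most, at -0.44 with 9 libraries, against -2.08 with 12.

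Nursed and replacer-fed gilts of the same age were compared to ask whether feeding mattered. By limma, 0 of 33 members were called and 0 had an unadjusted p under 0.05, against 0.0119% and 2.68% of all genes. The log2 difference, PND2N minus PND2R, was between -0.34 (ITGB6) and 1.18 (ITGA11), with a median of 0.26 over the members and 0.03 over all genes. It was positive for 25 of 33 members, against 54.5% of genes, with 1 of the libraries apart in PND2N and 2 in PND2R. Without them the median was 0.10, 12 members were negative, against 8 with all libraries, and the ITGB7 row alone had an unadjusted p under 0.05 (3.03%, against 3.59% of genes). The 95% intervals of single members reached from -2.07 to 3.33 (both bounds of ITGA6), so differences of this size could not be told from the spread between animals. Of the members called at day 2, COL4A2 had the widest interval, with a difference of 0.84 and a 95% interval from -0.06 to 1.75. COL4A2 averaged 2758 ± 1371 in PND2N and 1550.5 ± 803 in PND2R (SD, n = 4 each). The LAMC1 row had an interval from -0.36 to 0.37 and averaged 8274 ± 1596 in PND2N and 8204 ± 1269 in PND2R. COL4A5 had an interval from -0.42 to 0.36 and averaged 10286 ± 2017 in PND2N and 10487 ± 1889 in PND2R. NID2, SDC4 and ITGAE had intervals from -0.43 to 1.16, from -0.48 to 1.05 and from -0.75 to 0.24.

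The table has more than 1 entry for 9 of the chains, members or not. For 5 of these the ratio of a pair of entries described as the same chain was taken, and it differed widely between libraries. No ratio was taken for the other chains, whose entries, given further below, did not all move together either. The choice of these entries was made with their values known, and their ratios are a description. For perlecan, the ratio of the entry LOC100626701 (chr6:72738035-72746337) to HSPG2 was 16.9, 16.9 and 12.3 in PND2N 1, PND2R 2 and PND2R 3, 0.715 to 3.30 in the other 5 day 2 libraries and 0.524 to 0.732 in PND0. Thus the entry was the higher one in the libraries apart, and HSPG2 the higher one in every PND0 library. For LAMA2, the ratio of LOC100525900 to LAMA2 was 6.35 to 10.6 in the libraries apart, 0.374 to 1.43 in the other day 2 libraries and 0.364 to 0.461 in PND0. For ITGB5, the ratio of LOC100624457 to ITGB5 was 150.2 to 216 in the libraries apart, 37.3 to 78.7 in the other day 2 libraries and 41.0 to 54.1 in PND0.

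COL4A1 and AGRN, which the rule would name, stand in the table under placeholder names and showed the same order. For COL4A1, the ratio of LOC100626477 (chr11:80670557-80684124) to LOC100626672 (chr11:80949671-80982565) was 47.5 to 75.7 in the libraries apart, 4.15 to 17.8 in the other day 2 libraries and 3.41 to 4.28 in PND0. For AGRN, which encodes agrin, the ratio of LOC100621139 to LOC100620930 was 20.7 to 24.9, 3.58 to 9.93 and 3.01 to 3.57 in the same sets of libraries. In all 5 pairs PND2N 1, PND2R 2 and PND2R 3 had the highest ratios, and PND2N 4 was the highest of the other day 2 libraries. Some entries went the same way. The perlecan entry LOC100627092 was, like HSPG2, lowest in the libraries apart (12.4 to 20.9, against 75.9 to 309 in the other 9). The COL4A1 entries LOC100515336 and LOC100626672 both fell. All 3 entries of COL4A6 had negative day 2 changes (-0.84, -1.03 and -0.75, none called), but they did not follow each other by library. LOC100620724 was lowest in the libraries apart (436 to 802, against 1267 to 3899 in the other 9), and so was LOC100621240. The COL4A6 row overlapped there (16.4 to 34.7, against 15.6 to 52.7). For ITGAL, the entry LOC100622079 was lowest in the libraries apart, as ITGAL was, while LOC100621993 was at 590.7 to 647.4 there, against 310 to 643 in the other 9. The entries LOC100622279 of LAMA3 and LOC100623587 of LAMB1 were highest in the libraries apart, at 842 to 1271 and 137 to 149, against 367 to 815 and 88.3 to 116 in the other 9. What sets these ratios was not tested, and the normalized value of a single entry is not a measure of the whole chain.

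**Figure D5:**
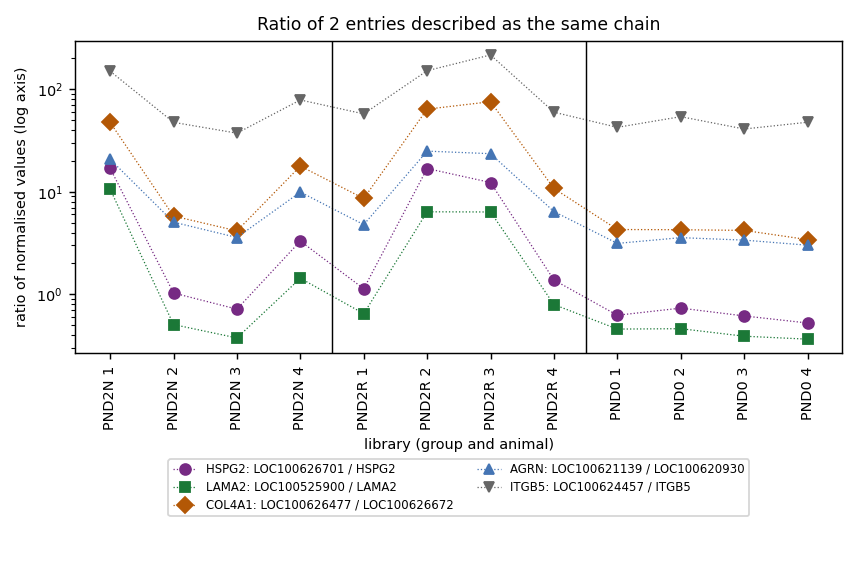
Ratio of the normalized values of a pair of entries described as the same chain (vertical axis, log scale) in the 12 libraries, for 5 chains. PND2N 1, PND2R 2 and PND2R 3 are the peaks of every line, and the PND0 libraries are flat, at 3.41 to 4.28 for COL4A1.

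Further chains had a row under a placeholder only, and they too were found with values known. LOC100515336, an entry of COL4A1 whose ID keeps that name in the later table (chr11:80822144-80864392), had 6794, 14984, 11066 and 6685 in PND2N 1 to 4, 8728, 7466, 3553 and 7775 in PND2R 1 to 4, against 14030.1, 20126, 13321 and 19107 in PND0 1 to 4. It fell in PND2R (-1.33 ± 0.32, adjusted p = 0.0232) and in the day 2 average (-1.07 ± 0.28, adjusted p = 0.0245). The PND2R call ended when PND2R 2, PND2R 3 or PND0 4 was left out (adjusted p 0.0563 to 0.0646) and the day 2 call when PND0 2 or PND0 4 was left out (adjusted p 0.0583 to 0.0803), and without the libraries apart the day 2 change was -0.83 (adjusted p = 0.0558). All PND2R libraries were below all PND0 libraries, and PND2N overlapped PND0 through PND2N 2 alone. Another COL4A1 entry, LOC100626672, fell in PND2R (-2.07 ± 0.59, adjusted p = 0.0368) and in the day 2 average (-1.64 ± 0.51, adjusted p = 0.0446), while LOC100626477 was not called (0.61 ± 0.30, adjusted p = 0.161). For LOC100626672 the PND2R call ended when PND2R 2, PND2R 3, PND0 1, PND0 2, PND0 3 or PND0 4 was left out (adjusted p 0.0579 to 0.112), and the day 2 call when PND2N 1, PND2N 4, PND2R 2, PND2R 3, PND0 1, PND0 2, PND0 3 or PND0 4 was left out (adjusted p 0.0603 to 0.128). Neither was called without the libraries apart. The day 2 call of LOC100515336 also ended with library quality weights, the PND2R call of LOC100626672 with no filter on low values or library quality weights, and its day 2 call with no filter on low values, plain empirical Bayes or library quality weights.

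The agrin entry LOC100620930 fell in PND2R (-1.72 ± 0.46, adjusted p = 0.0301) and in the day 2 average (-1.54 ± 0.40, adjusted p = 0.0244), and in the day 2 average it also did without the libraries apart (-0.95, adjusted p = 0.0264). Its PND2R call ended when PND2R 2, PND2R 3, PND0 1, PND0 2, PND0 3 or PND0 4 was left out (adjusted p 0.0527 to 0.0963), and its day 2 call when PND0 1, PND0 2 or PND0 4 was left out (adjusted p 0.0525 to 0.0697). Both also ended with no filter on low values. The other agrin entry was at 9355 to 17111 in PND2N, 11979 to 18663 in PND2R and 11367 to 16779.7 in PND0, with overlapping groups.

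LOC100621504, COL4A3 in the later table and a partner of COL4A4 and COL4A5, had 102, 421, 435 and 73.2 in PND2N 1 to 4, 364, 80.0, 82.5 and 294 in PND2R 1 to 4, against 601, 465, 2511 and 1589 in PND0 1 to 4. PND0 3 stood far above the other libraries, and PND2N and PND2R lay below PND0 throughout. It fell in PND2R (-2.65 ± 0.76, adjusted p = 0.0387) and in the day 2 average (-2.53 ± 0.66, adjusted p = 0.0249). The PND2R call ended when PND2R 2, PND2R 3, PND0 1, PND0 3 or PND0 4 was left out (adjusted p 0.0505 to 0.116), and the day 2 call when PND0 3 or PND0 4 was left out (adjusted p 0.0802 to 0.0836). Both also ended with no filter on low values or library quality weights. Without the libraries apart the day 2 change was -1.88 (adjusted p = 0.0875).

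ITGA10, a collagen-binding chain under LOC100511507, fell in the day 2 average (-0.77 ± 0.22, adjusted p = 0.0362), a call that ended when PND2N 1, PND2N 4, PND2R 2, PND2R 3, PND0 3 or PND0 4 was left out (adjusted p 0.0532 to 0.123), with quantile normalization or library quality weights, and without the libraries apart. NID1 under LOC100511351, the beta chain entry LOC100623072 described as laminin beta-2-like, and ITGA1 under LOC100512142 had PND2R changes of -2.12 ± 0.70, -2.64 ± 0.88 and -2.39 ± 0.87 that were not called (adjusted p = 0.0581, 0.0597 and 0.0767). In the day 2 average LOC100623072 was not called with 12 libraries (-2.26, adjusted p = 0.0581). It was called without the libraries apart (-1.08, adjusted p = 0.0482), where NID1 and ITGA1 were not (adjusted p = 0.0747 and 0.173). ITGB4, the hemidesmosome chain under LOC100521988, was at 4807 to 6315 in PND2N, 4036 to 6624 in PND2R and 4094 to 13350.0 in PND0. SDC1, the epithelial syndecan under LOC100519770, was at 2795 to 3519.7 in PND2N, 2726 to 3093 in PND2R and 1401 to 5208 in PND0, and SDC3 under LOC100516859 at 5593 to 8982 in PND2N, 5969.6 to 8415 in PND2R and 5306 to 7400.1 in PND0. None of these last 3 was called.

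Other genes of the pathway were read from lists of named genes. Of 31 genes of basement membrane assembly, crosslinking and minor components, 24 were measured. In PND2N against PND0, 1 rose (4.17%, against 1.91% of all genes) and 0 fell (against 1.41%). The gene that rose is COL17A1, which is also in the hemidesmosome list and is described there. At an unadjusted p under 0.05 by limma there were 10 genes (41.7%, against 23.9% of all genes). In PND2R against PND0, 0 rose (against 7.7%) and 6 fell (25.0%, against 7.31%). In the day 2 average 2 rose (8.33%, against 9.57%) and 7 fell (29.2%, against 8.49%). The list's median change was -0.48 in PND2N, -0.60 in PND2R and -0.55 in the day 2 average, beside -0.04, -0.06 and -0.05 over all genes. FBLN2, a fibulin that binds nidogen and laminin, had 2207, 2851, 2798 and 2355 in PND2N 1 to 4, 1615, 2237, 2569 and 1560.2 in PND2R 1 to 4, against 3529, 3648, 3859 and 4032 in PND0 1 to 4. All day 2 libraries were below all PND0 libraries, with PND2R 1 and PND2R 4 lowest. FBLN2 fell in PND2R (-0.95 ± 0.17, adjusted p = 0.0102) and in the day 2 average (-0.76 ± 0.15, adjusted p = 0.00954), and both calls were kept without each library in turn and without the libraries apart.

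P4HA1, an enzyme that hydroxylates proline in collagens, had 1978, 2948, 3884 and 1928 in PND2N 1 to 4, 2318, 2103, 2092 and 2237 in PND2R 1 to 4, against 4057, 4226, 5361 and 4745 in PND0 1 to 4. All day 2 libraries were again below all PND0 libraries, and P4HA1 fell in PND2R (-1.06 ± 0.21, adjusted p = 0.0125) and in the day 2 average (-0.95 ± 0.18, adjusted p = 0.00843). FBLN1, a fibulin of basement membranes and vessel walls, was at 2609.9 to 5613 in PND2N, 2439.7 to 3917 in PND2R and 6112 to 7945 in PND0, without overlap between day 2 and birth. It fell in PND2R (-1.12 ± 0.24, adjusted p = 0.0155), a call that ended without PND2R 3 (adjusted p = 0.0539). SPARC, which binds collagen IV, fell in PND2R (-0.50 ± 0.11, adjusted p = 0.0186), a call that also ended without PND2R 3 (adjusted p = 0.0671). With the 9 other libraries the PND2R calls of P4HA1, FBLN1 and SPARC ended (adjusted p = 0.0738, 0.0634 and 0.0949), while the day 2 calls of FBLN2, P4HA1 and FBLN1 were kept.

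COL17A1, the transmembrane collagen of hemidesmosomes, had 603, 801, 968 and 891 in PND2N 1 to 4, 644, 278, 252 and 554 in PND2R 1 to 4, against 276, 521, 125 and 112 in PND0 1 to 4. All PND2N libraries were above all PND0 libraries, and PND2R overlapped PND0. COL17A1 rose in PND2N (1.92 ± 0.48, adjusted p = 0.0497) and in the day 2 average (1.41 ± 0.41, adjusted p = 0.0367). The PND2N call was kept only when PND0 2 was left out (adjusted p 0.0544 to 0.141 without each of the others), and the day 2 call ended when PND2N 2, PND2N 4, PND2R 4, PND0 1, PND0 3 or PND0 4 was left out (adjusted p 0.0505 to 0.123). Without the libraries apart the PND2N call ended and the day 2 call was kept. The PND2N call also ended with 0.1 as the added value, no filter on low values, a fit of the compared groups only or plain empirical Bayes, and the day 2 call with no filter on low values. COL17A1 was 1 of 3 measured genes, out of 5, of the hemidesmosome list, and the other 2 were not called in any comparison. It is the same gene that rose in PND2N in the list of basement membrane assembly, so the 2 lists do not give separate results here.

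Of 32 integrin adaptors and focal adhesion genes, 17 were measured. In PND2N against PND0, 0 rose and 0 fell by limma, with 4 at an unadjusted p under 0.05 (23.5%, against 23.9% of all genes), and in PND2R 0 rose and 2 fell (11.8%, against 7.31%). VCL, which encodes vinculin, fell in PND2R (-0.99 ± 0.25, adjusted p = 0.0261), and so did ACTN1, an alpha-actinin (-0.66 ± 0.20, adjusted p = 0.043). The call of VCL ended when PND2R 2, PND2R 3, PND0 3 or PND0 4 was left out (adjusted p 0.065 to 0.0798), and that of ACTN1 when PND2N 2, PND2N 4, PND2R 1, PND2R 2, PND2R 3, PND2R 4, PND0 3 or PND0 4 was left out (adjusted p 0.0512 to 0.11). In the day 2 average VCL and ACTN1 fell (11.8%, against 8.49% of all genes). There KRIT1, which binds the integrin regulator ICAP1 (0.36 ± 0.11, adjusted p = 0.041), and FERMT3, the kindlin of blood cells (0.74 ± 0.24, adjusted p = 0.0478), rose (11.8%, against 9.57% of all genes). Both shares are near those of all genes, and each of these calls ended without any 1 of 5 to 11 libraries. Without the libraries apart the day 2 call of ACTN1 was kept, and the other calls of this list ended. The PND2R call of ACTN1 also ended with no filter on low values, a fit of the compared groups only or plain empirical Bayes, and its day 2 call with no filter on low values, plain empirical Bayes or library quality weights. The day 2 calls of VCL and FERMT3 also ended with no filter on low values or library quality weights, and that of KRIT1 with quantile normalization or plain empirical Bayes. The list's median change was 0.08 in PND2N and 0.14 in PND2R.

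Of 27 genes of the dystrophin and dystroglycan complex, 23 were measured, and 0 rose or fell by limma in either day 2 group against PND0, with 4 at an unadjusted p under 0.05 in PND2N (17.4%, against 23.9% of all genes) and 5 in PND2R (21.7%, against 37.0%). In the day 2 average DMD and DTNA fell (8.7%, against 8.49%). DMD, which encodes dystrophin, had 218, 1023, 1242 and 635 in PND2N 1 to 4, 1184, 207, 253 and 1014 in PND2R 1 to 4, against 1857, 1577, 2228 and 2258 in PND0 1 to 4. DTNA, an alpha-dystrobrevin, had 66.5, 132, 189 and 115 in PND2N 1 to 4, 225, 86.0, 96.7 and 202 in PND2R 1 to 4, against 265, 296, 400.1 and 267 in PND0 1 to 4. All day 2 libraries were below all PND0 libraries for both, and PND2N 1, PND2R 2 and PND2R 3 were the lowest for both. The day 2 changes were -1.78 ± 0.54 for DMD (adjusted p = 0.042) and -1.23 ± 0.34 for DTNA (adjusted p = 0.0309). Each call ended when PND2N 4, PND2R 2, PND2R 3 or any 1 of the PND0 libraries was left out (adjusted p 0.0622 to 0.112 for DMD and 0.0543 to 0.0887 for DTNA). The call of DMD also ended with no filter on low values, plain empirical Bayes or library quality weights, and that of DTNA with library quality weights. Without the libraries apart the call of DMD was kept and that of DTNA ended. The list's median change was -0.14 in PND2N, -0.18 in PND2R and -0.21 in the day 2 average.

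Of 19 further integrin ligands, 13 were measured. THBS1, the matrix protein thrombospondin, fell in PND2R (-1.81 ± 0.51, adjusted p = 0.0354) and in the day 2 average (-1.44 ± 0.44, adjusted p = 0.0415). No other gene of the list was called in any comparison. Thus 7.69% of the list fell in PND2R, against 7.31% of all genes, and 7.69% in the day 2 average, against 8.49%. THBS1 had 1989.7, 5172, 2979.9 and 2652 in PND2N 1 to 4, 2848, 1335, 1061 and 2709 in PND2R 1 to 4, against 2789, 4156, 12252 and 11529.8 in PND0 1 to 4. PND0 3 and PND0 4 stood far above all others, PND0 1 and PND0 2 lay within the day 2 range, the PND2R call ended when PND2N 4, PND2R 2, PND2R 3, PND0 3 or PND0 4 was left out (adjusted p 0.0513 to 0.11) and with no filter on low values or library quality weights, the day 2 call when PND2N 1, PND2N 4, PND2R 2, PND2R 3, PND0 3 or PND0 4 was left out (adjusted p 0.0629 to 0.137) and with no filter on low values, plain empirical Bayes or library quality weights, and neither call was kept without the libraries apart. The list's median change was 0.09 in PND2N, -0.29 in PND2R and -0.07 in the day 2 average.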

How the data were processed

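Uterine RNA (RNeasy kit, NEBNext mRNA library kit, per the labels' protocols) of 12 gilts was sequenced, and the submitters' processing notes name bcl2fastq and the pig genome build Sscrofa10.2. The deposited table gives 1 linear expression signal per gene and library, normalized by the authors, and never below 1. The sources used here give neither the aligner nor how reads were counted and normalized, so the depth in reads is unknown and no counting interval is given. The lowest Pearson r between libraries was 0.935, and no libraries were identical.

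The signal was analysed as log2(value + 1) with limma 3.58.1 (R 4.3.3; trend and robust empirical Bayes) over genes above 1 in at least 4 libraries. All 12 libraries were in 1 fit of 3 group means (9 residual degrees of freedom), tested on simulated data first. A fold on this scale understates changes of low genes. P-values were adjusted by Benjamini and Hochberg over the 16862 genes tested, separately for each comparison. Further computing used Python 3.11.15, pandas 2.3.3, numpy 2.4.6 and matplotlib 3.10.9.

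Of the 33 members, 29 gene IDs are in a later NCBI table (Sscrofa11.1, used for names only), 28 with the same symbol. Coordinates are those of the deposited table. Values by library are given for members called in a comparison and, in each role group, for the member with the smallest p and the one with the highest mean. A log2 change is given for members with an unadjusted p under 0.05, and exceptions are stated where they occur. Of the other pathway genes, called ones are named, up to 4 per list. The members, the gene lists and the alternative without PND2N 1, PND2R 2 and PND2R 3 were chosen with earlier results of these data known. Alternatives were other added values, filters, scalings and spread estimates, library weights, fits of the compared groups only, and each library left out in turn.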

Additional observations from a re-analysis of the deposited data

Results flagged for a closer look

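Each of the 33 members was looked at in each group of 4 libraries for a value far from the other 3, by the gap to its nearest neighbour over the range of the group and Dixon's 95% critical value. Of the 99 groups 6 were flagged, and chance flags about 1 in 20. In PND2N, the leukocyte chain ITGB2 was at 842.6 in PND2N 2, with the other 3 libraries at 696.3 to 709.2, and ITGB5 was at 41.13 in PND2N 1, with the others at 87.53 to 97.78. In PND0, COL15A1 was at 4441 in PND0 1, with the others at 12640.0 to 14340.0, and COL4A6 was at 29.98 in PND0 3, with the others at 51.02 to 52.7. ITGA2 was at 5332 in PND0 1, with the others at 3621 to 3717, and ITGAM was at 278.5 in PND0 2, with the others at 176.6 to 183.5. None of these 6 genes was called in any comparison of all 12 libraries.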

How the results depend on the processing

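Among genes called, PND2N against PND0 gave 560, with 859 without a filter, 7 in a fit of those groups only, 275 without the libraries apart and 26 to 661 leaving out 1 library. PND2R against PND0 gave 2531, with 284 without the libraries apart and 543 to 4109 leaving out 1. The day 2 average gave 3046, with 1419 and 1014 to 3837. PND2N against PND2R gave 2, with 1 in a fit of those groups only, 6 with library quality weights, 6 without the libraries apart and 1 to 3 leaving out 1. Among members, PND2R against PND0 gave 5, with 2 without a filter, 2 with plain empirical Bayes, 3 with library quality weights, 0 without the libraries apart and 0 to 11 leaving out 1. For the day 2 average the members called were 6, and 2, 3, 2, 0 and 0 to 7 under the same alternatives. Members called were 0 to 0 leaving out 1 in PND2N against PND0 and in PND2N against PND2R. Without the LAMC1 and ITGB7 rows 4 members were called in PND2R and 5 in the day 2 average. The fit of the library quality weights stopped short of its convergence tolerance. Of the changes with an unadjusted p under 0.05, none turned its sign under an alternative. Among the other members, leaving out the libraries apart turned the sign of 5 of 33 in PND2N, 5 in PND2R, 4 in the day 2 average and 8 between the day 2 groups, such as ITGA11 in PND2N (0.34, against -0.28 with all libraries) and ITGB6 in PND2R (0.47, against -0.49). The causes were not tested. A fit of the compared groups only gives no day 2 average. No paired analysis was possible because the labels carry no replicate numbers, and the numbers used here follow the order of the samples. The depth behind low rows such as ITGB6 and COL4A6 is unknown.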

Other observations

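The 4 libraries of birth fell into pairs for some members. PND0 1 and PND0 2 both had at least 1.5 times the value + 1 of PND0 3 and PND0 4 for ITGA3, ITGA6, ITGB6 and SDC4 (12.1% of members, against 11.4% of genes). The reverse held for ITGA8, ITGAV and LAMA4 (9.09%, against 12.4% of genes). The keratin gene KRT8, of simple epithelia, was at 49821, 51645, 14444 and 11099.6 in PND0 1 to 4. Both shares of members are near those of all genes.

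Summed marker values of other cell types were read for the same libraries. Those of 9 of 11 endothelial genes were 10752 to 15793 in PND2N, 9796 to 12257 in PND2R and 12179 to 18585 in PND0. Those of 4 of 6 genes of nerve and Schwann cells were 9007 to 12507 in PND2N, 7854 to 13827 in PND2R and 6538 to 15179 in PND0. Those of 3 of 4 mesothelial genes were 8119 to 9482 in PND2N, 5840.2 to 9736 in PND2R and 6689 to 14887 in PND0, and those of 3 of 5 genes of red blood cells were 2161 to 4009 in PND2N, 688 to 2931 in PND2R and 1058 to 2647 in PND0.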
